A study of Mus musculus with 12 samples.

Results

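Embryoid bodies numbered replicate 1 and embryoid bodies numbered replicate 2 differed in the same genes in both cell lines of the study, with and without doxycycline (dox). The genes described here are 258 of the 15950 genes tested. A gene was included when replicate 1 minus replicate 2, on the log2 scale, had the same sign in all 4 matched pairs of arrays and was at least 0.5 (1.41-fold) in each pair. Of the 258 genes, 83 were higher in replicate 1 (0.52% of genes tested) and 175 were higher in replicate 2 (1.1%), together 1.62%. With arrays centred on their medians in place of quantile normalization the rule gave 57 and 226. The genes were chosen by their measured differences between replicates 1 and 2, so those differences are given as a description, with no test.

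The arrays measured RNA from mouse embryoid bodies, floating clumps formed by differentiating embryonic stem (ES) cells. All cells were A2lox ES cells of strain 129P2/OlaHsd, a line in which dox switches on an inserted transgene. In the knockdown line (GemKD) dox induced miRNAs against Geminin transcripts, and in the overexpression line (GemOE) it induced Geminin, a regulator of DNA replication licensing. The pairs were GemKD without dox, GemKD with dox from day 0, GemOE without dox and GemOE with dox from day 3, each with 1 array of replicate 1 and 1 of replicate 2. Dox was used at 0.5 µg/ml. GemKD was collected on day 4 and GemOE replicates 1 and 2 on day 5, so line and day cannot be told apart in these 8 arrays. The other 4 arrays are replicate 3, collected on day 4 in both lines, with and without dox. All cells had been kept on irradiated mouse embryonic fibroblasts with LIF and were separated from them before differentiation. The labels do not say whether replicates were separate cultures, whether a replicate number marks a shared culture or batch across the lines, or how many clones stand behind a line. The p-values below therefore cover at most the spread of these 12 arrays, part or all of which may be technical. The fits for the line interaction, for GemKD replicate 3 and with a replicate block give each replicate of a line its own mean. Their error then holds no spread between replicates.

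ES cells first leave a naive state, held by factors such as Esrrb, Tbx3 and Nr0b1, and pass through a formative and primed state resembling the epiblast, in which Fgf5 is switched on. Nodal and Wnt signals then turn on primitive streak genes such as Mixl1, Eomes and Gsc, and the cells go on to mesoderm and endoderm. A separate branch of early embryoid bodies, primitive endoderm, lies on their surface, makes basement membrane and expresses Gata4, Gata6 and Sox7.

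The mean deposited intensity was 677.3 to 696.6 and the median 145.3 to 182.2 over the 12 arrays. Levels below are log2(intensity + 1) after quantile normalization over the 12 arrays, and each value is 1 array unless stated. Genes with a mean below 6.46 on this scale were not tested. Genes of pluripotent cells and of the streak were both present, as their labels imply for early embryoid bodies: the lowest level on any array was 10.38 for Utf1, a pluripotency chromatin factor, and 7.03 for Mixl1. Geminin itself (Gmnn) was lower with dox on all 3 GemKD pairs (10.33, 10.15 and 10.05 without, 9.66, 9.74 and 9.63 with) and higher with dox on all 3 GemOE pairs (10.29, 10.15 and 10.35 without, 11.38, 10.83 and 11.04 with), so the labels of line and dox hold.

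Across all 15950 genes, the replicate differences of the 2 GemOE pairs had a Pearson r of 0.79, those of the 2 GemKD pairs 0.63, and pairs from different lines between 0.41 and 0.54. No array is shared between pairs, but genes are not independent and these values carry no p. All 4 differences had 1 sign for 6832 genes (42.8%), 3385 higher in replicate 1 (21.2%) and 3447 lower (21.6%). In a limma fit with line and dox as covariates, 3239 genes (20.3%) had an adjusted p under 0.05 for replicate 1 minus 2, 1520 higher (9.53%) and 1719 lower (10.8%), or 741 and 2404 with median centring. All 83 and 174 of the 175 genes described here were among them, which follows from how they were chosen. The fit counts the arrays without and with dox of a replicate as independent, although the 2 pairs of a line varied together. Its p-values therefore do not measure the spread between replicates of a line. The median level of the 258 genes was 8.71, against 8.40 for all genes tested.

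**Figure D1:**
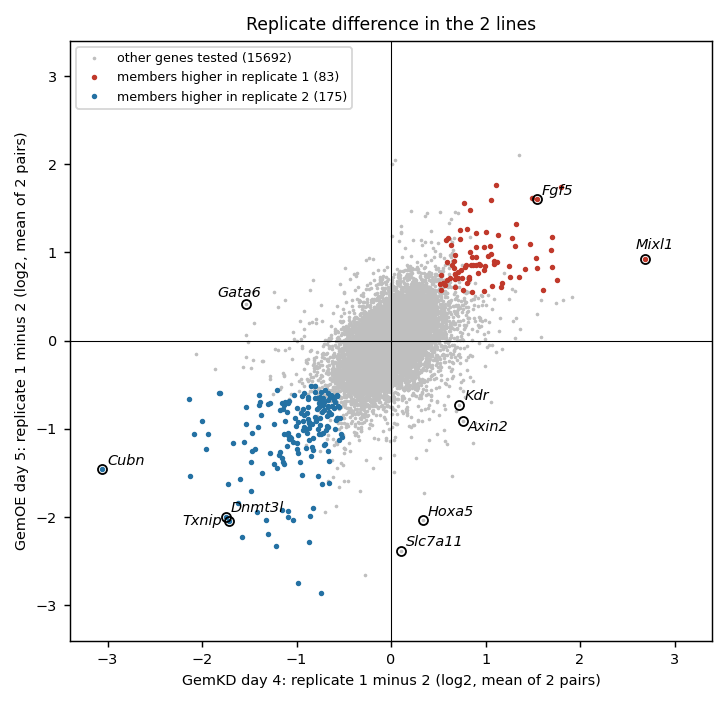
Each point is 1 of 15950 genes, placed by its mean log2 difference between replicate 1 and replicate 2 in GemKD on day 4 (x axis, 2 pairs) and in GemOE on day 5 (y axis, 2 pairs). The 83 genes higher in replicate 1 lie at the upper right and the 175 higher in replicate 2 at the lower left by rule, while Kdr, Axin2, Hoxa5 and Slc7a11 lie at the lower right and Gata6 at the upper left, where the lines ran opposite ways.

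Genes of the primed epiblast stood higher in replicate 1. Fgf5, a growth factor that marks the primed epiblast, stood at 10.35 without and 10.89 with dox in GemKD replicate 1, against 8.62 and 9.52 in replicate 2. In GemOE its levels were 10.97 and 10.84 in replicate 1 and 9.52 and 9.08 in replicate 2. The levels of the 2 replicates did not overlap in either line, and the 4 differences ran from 1.36 to 1.76. Replicate 3 sat near replicate 1, at 10.20 and 10.38 in GemKD and 10.86 and 10.66 in GemOE on day 4. Wnt8a, a Wnt ligand of the posterior epiblast, was likewise higher by 0.95 to 1.37 in the 4 pairs, with GemKD levels of 8.71 and 9.49 in replicate 1 and 7.34 and 8.24 in replicate 2. Zic2, a zinc finger factor of the formative and primed state, was higher by 0.58 to 0.94. Of 15 primed epiblast genes tested, 8 were higher in replicate 1 in all 4 pairs and 2 lower. Their median difference was 0.31 in GemKD and 0.33 in GemOE, beside 0.01 and 0.00 over all genes tested.

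Primitive streak genes were also higher in replicate 1. Mixl1, a homeobox factor of the streak, stood at 9.50 and 10.95 in GemKD replicate 1 (without and with dox) and at 7.03 and 8.04 in replicate 2, differences of 2.46 and 2.91. In GemOE on day 5 its levels were 11.84 and 11.88 in replicate 1 and 10.88 and 11.00 in replicate 2, differences of 0.96 and 0.89. Replicate 1 was above replicate 2 in both lines without overlap, and on day 4 replicate 3 stood at 9.56 and 9.83 in GemKD and at 11.94 and 11.79 in GemOE. Gsc, the homeobox gene goosecoid of the anterior streak, was higher by 0.91 and 2.07 in GemKD and by 1.72 and 1.52 in GemOE. In GemKD replicate 2 it lay at 6.80 and 6.78, close to the lower limit for testing. Fst, the secreted activin inhibitor follistatin, was higher by 1.85 and 1.53 in GemKD and by 0.98 and 1.09 in GemOE. Eomes, a T-box factor of streak and endoderm named outside the rule for naming genes after its values were seen, was higher by 1.58 and 1.83 in GemKD and by 0.82 and 0.86 in GemOE. Of 22 streak genes tested, 12 were higher in replicate 1 in all 4 pairs and 1 lower, and the median difference was 0.68 in GemKD and 0.40 in GemOE. The T gene (brachyury) is not analysed here.

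Genes of definitive endoderm and the axial organizer were mostly higher in replicate 1 in GemOE, 20 and 16 of 20 genes (without and with dox). In GemKD the direction was less even, with 14 and 12 of 20 higher, and some levels were low. Cer1, a secreted inhibitor of Nodal, BMP and Wnt made by anterior endoderm, stood at 10.21 and 9.37 in GemOE replicate 1 and at 8.26 and 7.80 in replicate 2. In GemKD its levels were 6.0 and 6.90 against 5.19 and 5.48, most of them below the limit for testing. Trh, which encodes thyrotropin-releasing hormone, was higher by 0.75 to 1.36 in the 4 pairs. Lhx1, a LIM homeobox factor of the organizer, missed the rule by 1 pair: its differences were 0.48 and 2.23 in GemKD and 2.13 and 2.09 in GemOE. Of 20 genes on this list, 11 were higher in replicate 1 in all 4 pairs and 0 lower, with median differences of 0.30 in GemKD and 0.46 in GemOE. A further 4, among them Gata6 and Sox17, were lower in both GemKD pairs and higher in both GemOE pairs, beside 5.07% of all genes tested.

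Of the 12 genes higher in replicate 1 by the widest margin, several belong to none of these lists. Aplnr, the apelin receptor of early mesoderm and endothelium, was higher by 1.04 and 1.89 in GemKD and by 1.13 and 1.07 in GemOE. Its levels reached 11.32 and 11.19 in GemOE replicate 1 and stood at 7.18 and 8.46 in GemKD replicate 1. Apln, which encodes its ligand apelin, was also among the 83 genes, higher by 0.70 to 1.27 (named after its values were seen). The intermediate filament genes Nefm and Nes were higher by 1.17 to 1.92 and by 0.92 to 1.58. Nefm stood at 9.30 and 9.40 in GemKD replicate 1 and at 7.38 and 7.91 in replicate 2. Nefl, a second neurofilament gene next to Nefm in the genome, was also among the 83. Nes was the only member among 24 neural ectoderm genes, and the list's median differences were -0.03 and -0.07. Kcnj3, a potassium channel subunit, Tmsb4x, the actin-binding peptide thymosin beta 4, and Trpm6, a magnesium channel, were higher by 1.11 to 1.53, 1.08 to 1.48 and 1.05 to 1.28. Among the 83, Usp17ld had the largest smallest difference (1.54 to 1.94), but it belongs to a family of near-identical deubiquitinase genes whose probes may not tell copies apart, and its level in GemKD replicate 3 was 5.59 without and 8.44 with dox.

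**Figure D2:**
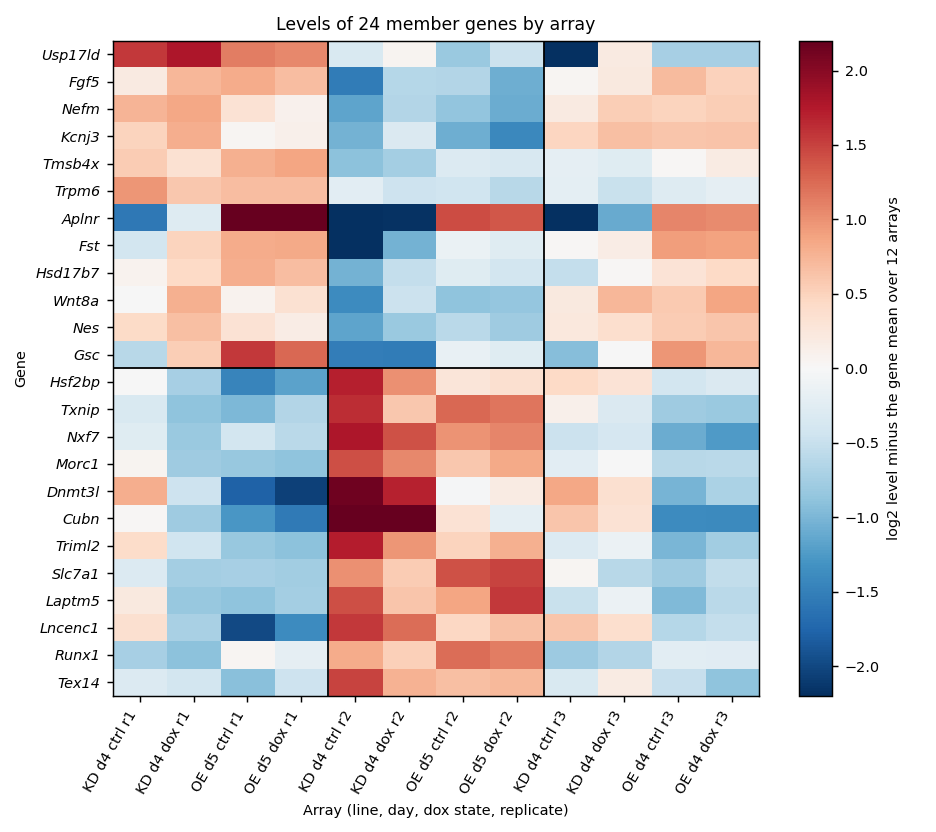
Rows are the 12 genes of each direction with the largest smallest pair difference, columns are the 12 arrays grouped as replicate 1, 2 and 3, and the colour is the log2 level minus the gene's mean over all arrays, drawn up to 2.2 in either direction. In each row each pair of replicate 1 and 2 differs by at least 0.91, while replicate 3 looks more like replicate 1 in most rows and the line sets the level of Aplnr and Cubn.

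Naive pluripotency genes stood higher in replicate 2. Esrrb, an orphan nuclear receptor of the naive network, stood at 9.39 and 7.93 in GemKD replicate 1 and at 10.35 and 9.79 in replicate 2. In GemOE its levels were 7.97 and 8.11 in replicate 1 and 9.80 and 10.17 in replicate 2. The replicates did not overlap in either line, and GemKD replicate 1 without dox was the nearest to replicate 2. Nr0b1, a nuclear receptor also called Dax1, differed by -0.72 and -1.72 in GemKD and by -2.04 and -2.62 in GemOE. Its GemKD levels nearly met, at 10.66 and 9.0 in replicate 1 and 11.38 and 10.72 in replicate 2. Fbxo15, an F-box gene used as an ES cell reporter, had differences of -1.07 to -1.57. Dnmt3l, the cofactor of the de novo DNA methyltransferases, stood at 10.15 and 8.90 in GemKD replicate 1 against 11.49 and 11.05 in replicate 2, and at 7.58 and 7.31 against 9.34 and 9.54 in GemOE. Tbx3, a T-box factor, Fgf4, the growth factor that starts exit from the naive state, and Tcl1, an Akt coactivator named after its values were seen, complete the 7 members of this list. Of 18 naive genes tested, 14 were lower in replicate 1 in all 4 pairs and 0 higher, with medians of -0.54 in GemKD and -0.83 in GemOE. Over the naive list, the mean level by array ran from 8.77 to 9.54 in replicate 1 and from 9.62 to 10.00 in replicate 2.

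Core pluripotency genes, which stay on in the primed state, differed less. Of 12 tested, 7 were lower and 2 higher in replicate 1 in all 4 pairs, with medians of -0.20 and -0.27. Sox2, the high mobility group factor of pluripotent and neural cells, was the only member, at -0.53 and -0.51 in GemKD and -1.06 and -1.12 in GemOE. Lncenc1, a long non-coding RNA expressed in naive ES cells and on no list, stood at 11.09 and 10.02 in GemKD replicate 1 and at 12.28 and 11.96 in replicate 2. In GemOE it stood at 8.76 and 9.36 against 11.19 and 11.38. In bulk samples such as these, a smaller share of cells that express a gene and less RNA per cell cannot be told apart.

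Some germline genes were also higher in replicate 2. Hsf2bp, a meiotic recombination protein, had differences of -1.54 to -1.73 in the 4 pairs, the largest smallest difference of all 258 genes. It stood at 8.96 and 8.25 in GemKD replicate 1 against 10.68 and 9.98 in replicate 2, and at 7.52 and 7.79 against 9.24 and 9.33 in GemOE. Morc1, which silences retrotransposons in male germ cells, Nxf7, of the nuclear RNA export factor family, and Tex14, a protein of germ cell bridges, had smallest differences of -1.36, -1.40 and -1.17. A list of 18 germline genes known to be kept silent by DNA methylation, drawn up after the values were seen, had 12 genes lower in replicate 1 in all 4 pairs, 1 higher, and 6 members, counts given only as a description. Among them Sohlh2, a helix-loop-helix factor of early germ cells, differed by -1.70 and -1.65 in GemKD and by -1.28 and -1.05 in GemOE. Dazl, a germ cell RNA-binding protein, differed by -0.51 to -1.03. The list's medians were -0.41 and -0.49. Tet1 and Tet2, which oxidise methylated cytosine, were members too, at -0.75 to -1.12 and -0.83 to -1.16 (named after their values were seen). By contrast the list of primordial germ cell genes, with 11 tested, had medians of 0.06 and 0.05 and 1 member, Dazl.

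Genes of primitive and visceral endoderm were mostly higher in replicate 2 in GemKD, 20 and 19 of 23 genes (without and with dox). In GemOE they were nearer to an even split, with 13 and 14 of 23 higher in replicate 2. Cubn, the cubilin receptor of visceral endoderm, stood at 9.01 and 8.21 in GemKD replicate 1 and at 11.72 and 11.61 in replicate 2, the widest gap of any member. In GemOE it stood at 7.71 and 7.43 against 9.30 and 8.77. Gata4, a zinc finger factor of extraembryonic endoderm and heart mesoderm, differed by -1.78 and -1.87 in GemKD and by -0.52 and -0.65 in GemOE. Sox7, an endoderm and endothelial factor, differed by -2.35 and -1.81 and by -1.17 and -0.95. Dab2, an endocytic adaptor of the endoderm, differed by -1.90 and -2.38 and by -0.79 and -0.54. Of 23 genes tested on the list, 12 were lower and 1 higher in replicate 1 in all 4 pairs, with medians of -0.47 in GemKD and -0.18 in GemOE (0.02 in GemOE without normalization). A further 4, among them Gata6 and Sox17, were lower in both GemKD pairs and higher in both GemOE pairs, beside 5.07% of all genes tested. Gata6 and Sox17 are also on the definitive endoderm list, so these counts of the 2 lists are not separate. The mean level of the primitive and visceral endoderm list by array ran from 8.15 to 8.67 in replicate 1 and from 8.71 to 9.06 in replicate 2.

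Basement membrane genes went with them. Lama1, the laminin alpha 1 chain, stood at 10.12 and 9.17 in GemKD replicate 1 and at 11.79 and 11.11 in replicate 2, and at 10.29 and 10.28 against 10.92 and 10.85 in GemOE. Lamc1, the laminin gamma 1 chain, and Hspg2, perlecan, had differences of -0.71 to -1.20 and -0.92 to -1.22. Of 14 genes tested, 12 were lower in replicate 1 in all 4 pairs and 0 higher, and the median was -1.0 in GemKD against -0.34 in GemOE.

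Among the 12 genes highest in replicate 2 by the same measure were some known best from blood. Runx1, a factor of blood formation, stood at 7.12 and 6.95 in GemKD replicate 1 and at 8.66 and 8.37 in replicate 2, and at 7.89 and 7.66 against 9.07 and 8.98 in GemOE. Laptm5, a lysosomal protein of blood cells, differed by -1.20 to -2.31, and Triml2, a tripartite motif family gene, by -1.32 to -1.68. Pecam1, an adhesion molecule of endothelium that ES cells also carry, was a member outside those 12, with differences of -1.04 and -1.26 in GemKD and of -1.80 and -2.03 in GemOE. In the haemangioblast and endothelium list 7 of 23 genes were lower and 1 higher in replicate 1 in all 4 pairs, beside 21.6% and 21.2% of all genes tested. The list had medians of -0.03 in GemKD and -0.45 in GemOE. Its 3 members were Runx1, Pecam1 and Sox7.

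Some genes of glucose sensing and of the amino acid stress response stood higher in replicate 2, while other metabolic lists did not share that direction in all 4 pairs. Txnip, the thioredoxin-interacting protein that limits glucose uptake, stood at 10.66 and 10.11 in GemKD replicate 1 and at 12.61 and 11.58 in replicate 2. In GemOE it stood at 10.01 and 10.34 against 12.26 and 12.17. Arrdc4, an arrestin-domain relative of Txnip, differed by -1.90 and -1.06 in GemKD and by -1.80 and -1.61 in GemOE, and Klf10, a Krüppel-like factor, by -0.90 to -1.31. All 3 genes are known targets of MondoA and ChREBP, factors that respond to glucose and bind pairs of CACGNG sites 5 bases apart. Of 6 such targets on a list drawn up after the values were seen, 4 were lower in replicate 1 in all 4 pairs and 0 higher, with medians of -0.70 and -0.85.

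The 250 bases before the start of Txnip and Arrdc4 are shown because these genes are known targets of factors with a defined site. Sequences are from RefSeq (GRCm38.p6), Txnip at chr3:96557707-96557956 on the plus strand and Arrdc4 at chr7:68749239-68749488 on the minus strand. Capitals mark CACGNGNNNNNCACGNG in Txnip, 85 bases before the start, and CACGTG in Arrdc4, 193 bases before it.
Txnip: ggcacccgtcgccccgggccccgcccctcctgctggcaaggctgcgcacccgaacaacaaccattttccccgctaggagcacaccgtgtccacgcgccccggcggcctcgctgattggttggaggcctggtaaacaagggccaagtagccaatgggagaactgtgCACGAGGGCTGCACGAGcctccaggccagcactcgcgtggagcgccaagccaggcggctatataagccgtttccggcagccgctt
Arrdc4: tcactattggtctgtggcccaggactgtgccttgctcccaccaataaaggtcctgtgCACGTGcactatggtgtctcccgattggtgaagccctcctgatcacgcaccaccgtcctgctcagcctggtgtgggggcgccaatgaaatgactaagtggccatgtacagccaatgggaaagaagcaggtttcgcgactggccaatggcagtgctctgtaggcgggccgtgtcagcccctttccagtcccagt
Both strands were searched, in the 250 bases before the start, and the motifs were chosen after the values were seen. The paired motif was found in 8 of 12583 genes tested that had a promoter entry (0.0636%), among them 1 of the 129 genes higher in replicate 2 with an entry. That gene was Txnip, and Arrdc4 had no paired match in its 250 bases. CACGTG was found in 9.24% of all 12583, in 14 of 129 genes higher in replicate 2 (10.9%) and in 6 of 63 higher in replicate 1 (9.52%). A match of these letters is a description of the sequence only.

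Targets of Atf4, the factor of the amino acid and endoplasmic reticulum stress response, were lower in replicate 1 and more so in GemOE. Trib3, a pseudokinase induced by Atf4, differed by -0.63 and -1.10 in GemKD and by -1.96 and -2.60 in GemOE. Mthfd2, a mitochondrial folate enzyme, stood at 9.78 and 9.47 in GemKD replicate 1 against 10.62 and 10.34 in replicate 2, and at 9.06 and 8.99 against 10.94 and 11.09 in GemOE. Gpt2, an alanine transaminase, differed by -0.79 to -1.99. Of 23 genes tested, 19 were lower in replicate 1 in all 4 pairs and 0 higher, with medians of -0.39 and -1.12. Slc7a1, a cationic amino acid transporter on no list, differed by -1.30 and -1.31 in GemKD and by -2.14 and -2.25 in GemOE. Vegfa, the endothelial growth factor, was the only member among 24 hypoxia and glycolysis genes, at -1.13 to -1.45. The list as a whole had medians of -0.35 in GemKD and 0.26 in GemOE, and the pairs were unlike each other. By pair, without and with dox, the medians were -0.63 and -0.15 in GemKD and -0.06 and 0.48 in GemOE. Of the 24 genes, 21 and 15 were lower in replicate 1 in GemKD, and 15 and 4 in GemOE.

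Sterol and respiratory genes stood higher in replicate 1. Hsd17b7, an enzyme of cholesterol synthesis, was higher by 0.96 to 1.12, with GemOE levels of 10.06 and 9.93 in replicate 1 and 8.99 and 8.84 in replicate 2. Idi1, the isopentenyl diphosphate isomerase, was higher by 0.95 and 0.60 in GemKD and by 1.40 and 1.72 in GemOE. On a list of 16 cholesterol synthesis genes drawn up after the values were seen, 16 were higher in replicate 1 in all 4 pairs, with medians of 0.51 and 1.14, but Hsd17b7 and Idi1 were the only members on it. On a like list of 31 respiratory chain subunits, 22 were higher in all 4 pairs and 0 lower, with medians of 0.22 and 0.29 and Cox7a2 as the only member. On a like list of 30 ribosomal protein genes 18 were higher in all 4 pairs and 5 lower, beside 21.2% and 21.6% of all genes tested, with medians of 0.08 and 0.07 and 0 members. Genes of fatty acid oxidation had medians of -0.01 and -0.05, and among them Cpt1a, which brings fatty acids into mitochondria, was a member, at -0.97 to -2.02.

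Lists of dividing cells had medians near 0. The medians of 29 replication and S phase genes were -0.03 and 0.08, and those of 23 mitosis genes -0.10 and 0.01, with 0 members on either list, and the GemOE medians changed sign under other settings. Fibroblast genes, which could come from feeder cells, were higher in replicate 1 of GemKD: 16 of 19 without dox and 15 with dox, with a median of 0.22 over both pairs, against 0.04 in GemOE. In all 4 pairs 6 were higher and 0 lower, and 0 were members. The mean level of the list on the GemKD arrays was 8.14 and 8.08 in replicate 1 and 7.74 and 7.88 in replicate 2, without overlap, and on the GemOE arrays 8.15 and 8.18 against 8.18 and 8.25. Its part in the GemKD differences was not tested.

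**Figure D3:**
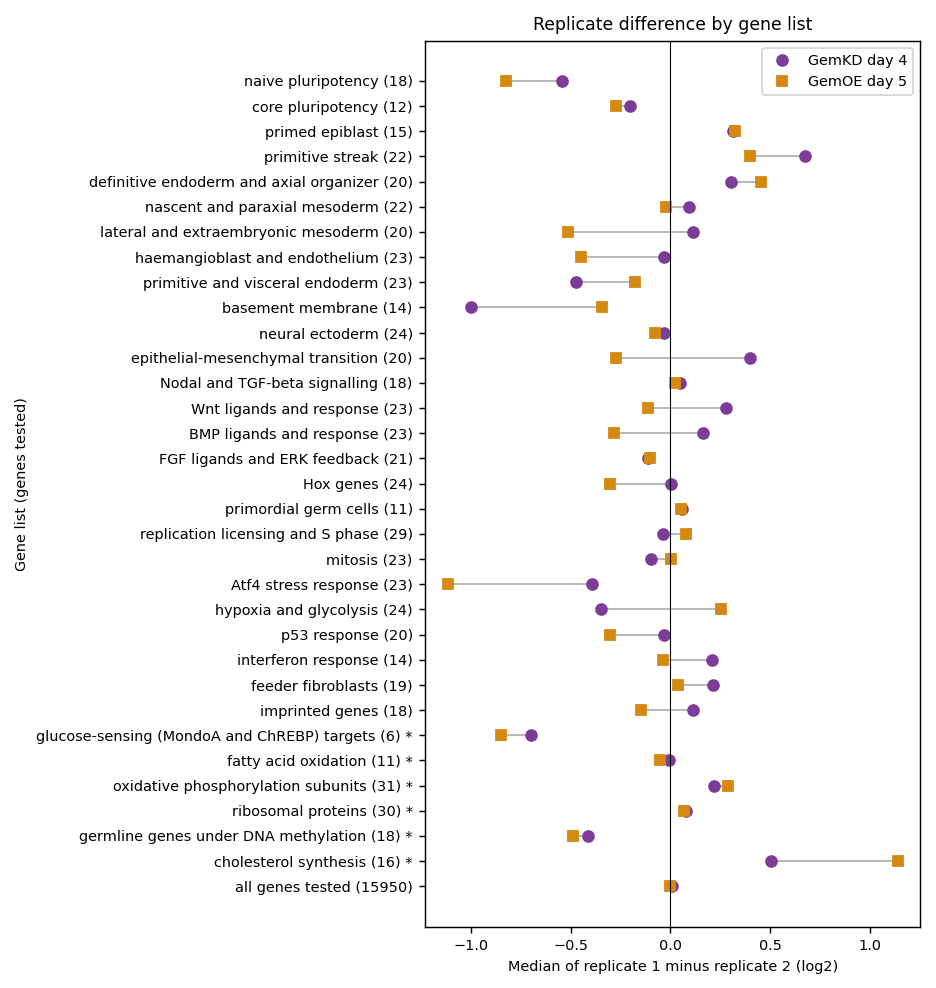
Each row is a gene list with its number of genes tested, and the points are the median log2 difference of replicate 1 minus replicate 2 in GemKD on day 4 (circles) and GemOE on day 5 (squares). Naive pluripotency, Atf4 and basement membrane genes lie to the left in both lines, and streak and cholesterol genes to the right in both. Lateral mesoderm lies on opposite sides. An asterisk marks lists drawn up after the values were seen, and the other lists were drawn up with earlier results of these data known.

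A working name for this contrast was the pace of differentiation, but pace was not tested. Low naive genes, high primed and high streak genes stood together in replicate 1 of both lines. Later mesoderm genes did not follow in both lines. Lateral and extraembryonic mesoderm genes had medians of 0.11 in GemKD and -0.51 in GemOE, and 10 of the 20 tested were higher in replicate 1 in both GemKD pairs and lower in both GemOE pairs, beside 6.95% of all genes tested (the reverse pattern was seen in 5.07%). The same pattern was seen in 7 of 23 Wnt genes, 6 of 23 BMP genes and 5 of 23 haemangioblast and endothelial genes. Lists share genes, so a gene can be counted more than once. The lateral mesoderm list shares Kdr with the endothelial list, and Bmp4 and Msx1 with the BMP list. The pattern was also seen in 6 of 19 fibroblast genes, the second highest share of any list after lateral mesoderm, in 5 of 18 imprinted genes and in 5 of 20 genes of epithelial-mesenchymal transition. The part of fibroblast RNA in this pattern was not tested. Some stress response, sterol and germline genes differed as well. The part of pace in any of these differences was not tested, and the genes are described here by the replicate contrast.

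Kdr, the receptor for Vegfa that marks lateral mesoderm, stood at 7.0 and 7.27 in GemKD replicate 1 and at 6.06 and 6.76 in replicate 2. In GemOE the order was the reverse, 9.65 and 9.21 in replicate 1 against 10.31 and 10.00 in replicate 2. Axin2, a feedback inhibitor and target of Wnt signalling, had differences of 0.70 and 0.81 in GemKD and of -0.86 and -0.96 in GemOE. Cdx2, a caudal homeobox factor of the posterior streak, had differences of 0.68 and 0.70 and of -0.71 and -0.87. At 0.5 in all 4 pairs, 7 genes were higher in replicate 1 of GemKD and lower in replicate 1 of GemOE, and 0 genes showed the reverse. At 0.3 the counts were 36 and 8. Among genes of the reverse pattern, Gata6, the partner of Gata4 in endoderm, stood at 8.50 and 8.55 in GemKD replicate 1 against 10.31 and 9.80 in replicate 2, but at 10.41 and 10.14 against 9.90 and 9.82 in GemOE. Sox17, an endoderm factor, had differences of -1.08 and -0.64 in GemKD and of 0.71 and 0.43 in GemOE.

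**Figure D4:**
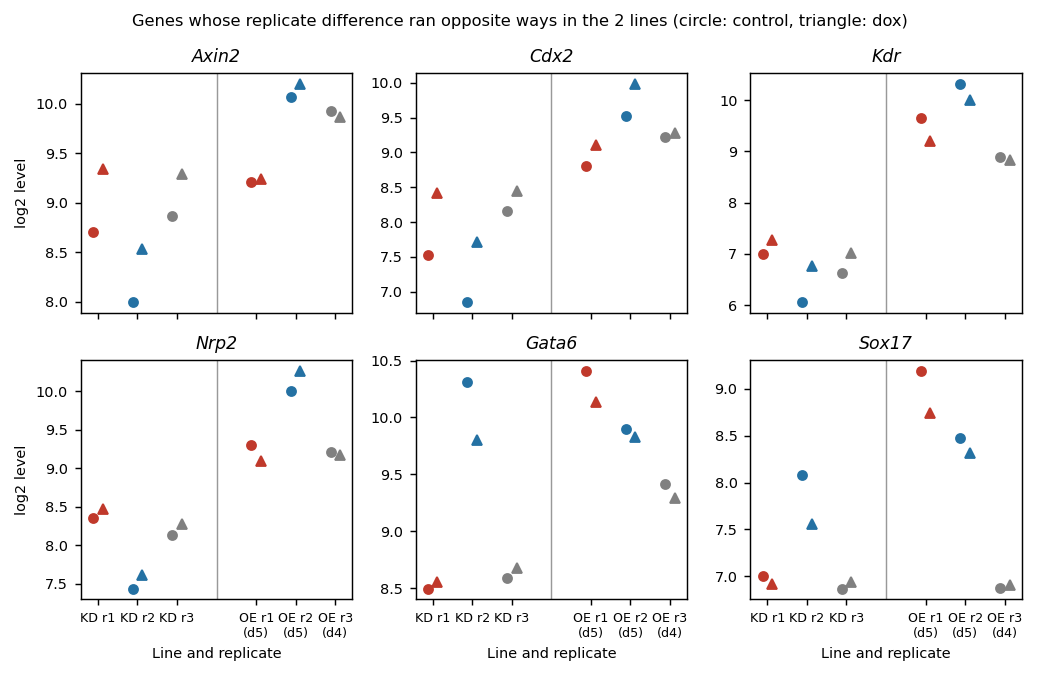
Each panel gives the log2 level of 1 gene on the 12 arrays, by line and replicate (x axis), with circles for controls and triangles for dox, in red for replicate 1, blue for replicate 2 and grey for replicate 3. In the Axin2, Cdx2, Kdr and Nrp2 panels replicate 1 is above replicate 2 in GemKD and below it in GemOE, and in the Gata6 and Sox17 panels the order is the reverse.

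The difference between the lines was tested as an interaction of replicate with line in limma on the 8 arrays. After adjustment over 15950 genes, 89 were called (0.558%), 68 with a higher replicate difference in GemKD (0.426%) and 21 with a lower one (0.132%). Without normalization these counts were 64 and 46. The call set includes Lmo2, a haematopoietic cofactor (1.71 ± 0.17 SE, adjusted p = 0.014), Axin2 (1.67 ± 0.22, adjusted p = 0.029) and Cdx2 (1.48 ± 0.22, adjusted p = 0.040), but not Kdr (1.45 ± 0.35, adjusted p = 0.129). Of the 23 primitive and visceral endoderm genes, 5 were called with a lower replicate difference in GemKD, among them Gata6 (-1.95 ± 0.19, adjusted p = 0.014), Dab2 (-1.48 ± 0.18, adjusted p = 0.025) and Gata4 (-1.23 ± 0.18, adjusted p = 0.042). The members of the replicate contrast gave 5 calls among 258 (0 among those higher in replicate 1). Their signs were bound by the rule, and nothing is read from that count. The error of this fit holds no spread between replicates of a line, and the interaction calls rested on few arrays. Their number was 0 without GemOE dox replicate 1, without GemKD control replicate 2 and without GemKD dox replicate 2. It was 3 and 4 without GemOE replicate 2 with and without dox, 38 without GemOE control replicate 1, 52 without GemKD dox replicate 1 and 99 without GemKD control replicate 1.

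Replicate 3 was not used to choose the genes and shows where a further set of arrays fell. In GemKD, where all 3 replicates were collected on day 4, replicate 3 was nearer to replicate 1 than to replicate 2 for 200 of the 258 genes (77.5%), against 51.5% of all genes tested. It lay between the other 2 for 227 of them. Genes higher in replicate 2 accounted for most of this: 149 of 175 were nearer to replicate 1, and 51 of 83 of those higher in replicate 1. In GemOE, where replicate 3 was collected a day earlier, it was nearer to replicate 1 for 189 genes (73.3%), against 52.6% of all genes, and between the other 2 for 170. Mean levels of the 83 genes were 9.45 and 9.72 in GemKD replicate 1, 8.42 and 8.76 in replicate 2 and 9.07 and 9.32 in replicate 3. In GemOE they were 9.80 and 9.73, 8.90 and 8.78, and 9.52 and 9.57. Mean levels of the 175 genes were 8.54 and 8.13 in GemKD replicate 1, 9.54 and 9.15 in replicate 2 and 8.58 and 8.61 in replicate 3. In GemOE they were 7.96 and 7.99, 9.01 and 9.06, and 8.17 and 8.24.

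**Figure D5:**
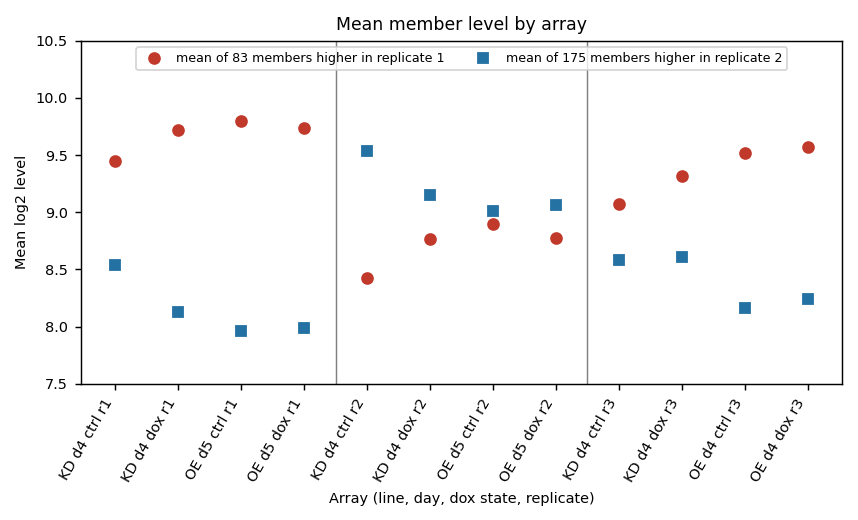
Points are the mean log2 level on each array (x axis: line, day, dox and replicate) of the 83 genes higher in replicate 1 (red circles) and the 175 higher in replicate 2 (blue squares). Replicates 1 and 2 are apart because the genes were chosen so, and the replicate 3 arrays lie between them or near replicate 1, with red means of 9.07 to 9.57 and blue means of 8.17 to 8.61.

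In limma, GemKD replicate 3 minus the mean of replicates 1 and 2 gave 3 calls (0.0188%) among all genes and 0 among the 258 genes. The error of this fit holds no spread between replicates. The called genes were Meis2, a homeobox cofactor (0.88 ± 0.08 SE, adjusted p = 0.046), 1 call in that direction (0.00627%), and 2 lower genes of classes that were counted but not named (0.0125%). With an unadjusted p under 0.05, 2241 genes passed (14.1%), with 36 of the 83 and 65 of the 175 among them. Without GemKD dox replicate 3 the number of calls was 379, without GemKD control replicate 3 it was 1, and without any other array it was 0. The estimate was below 0 for 149 of the 175 genes, with a median of -0.22, and above 0 for 51 of the 83, with a median of 0.07. For all genes tested it was above 0 in 54.3%. The 149 and 51 genes are the same ones counted above as nearer to replicate 1, so they are not a separate result.

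The day 4 arrays of GemOE allow a look at time in that line, although day cannot be told apart from replicate 3. Day 5 (replicates 1 and 2) minus day 4 gave 89 calls (0.558%), 63 higher (0.395%) and 26 lower (0.163%), over all genes tested (limma, adjusted p under 0.05), and 2264 genes passed an unadjusted p under 0.05 (14.2%). The error of this fit holds the difference between replicates 1 and 2, by which the 258 genes were chosen, so few of them could be called and their calls are not read. With the replicate block 1710 genes were called (10.7%), 30 of the 83 and 53 of the 175 among them. Genes higher in replicate 1 were on balance lower on day 5, 58 of 83 with a median of -0.22. Genes higher in replicate 2 were on balance higher on day 5, 131 of 175 with a median of 0.23. These 58 and 131 genes are the same ones counted above as nearer to replicate 1 in GemOE replicate 3, so they are not a separate result about time. Over all genes tested 49.8% were higher. For Fgf5 the estimate was -0.66 ± 0.62 (SE), for Wnt8a -1.04 ± 0.52, for Esrrb 1.04 ± 0.68 and for Mixl1 -0.46 ± 0.82, none of them called (limma adjusted p from 0.397 to 0.862). A replicate block takes the difference between replicates 1 and 2 out of the error. With it Fgf5 (limma adjusted p = 0.032), Wnt8a (adjusted p = 0.0027) and Esrrb (adjusted p = 0.033) were called and Mixl1 was not (adjusted p = 0.208). The error left is the spread between arrays without and with dox within a replicate. The block calls therefore do not cover the spread between replicates, and no effect of day is read from them.

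Esrrb shows what this means array by array. It stood at 7.92 and 8.03 in GemOE on day 4, close to replicate 1 on day 5 (7.97 and 8.11) and below replicate 2 on day 5 (9.80 and 10.17). Fgf5 on day 4 (10.86 and 10.66) was likewise close to replicate 1 on day 5 (10.97 and 10.84). Of the naive list, 15 of 18 genes were higher on day 5 with a median of 0.35, and of the primed list 13 of 15 were lower with a median of -0.65. Among the genes with a day call, Aldh1a2, a retinoic acid synthesis enzyme of the mesoderm, was at 8.47 and 8.22 in replicate 1 and at 9.01 and 8.92 in replicate 2 on day 5, against 7.22 and 7.04 on day 4 (1.52 ± 0.22 SE, adjusted p = 0.023), so both day 5 replicates were above day 4. Bmp5, a BMP ligand (1.78 ± 0.29, adjusted p = 0.037), and Dnmt3b, a DNA methyltransferase of the primed state (-1.22 ± 0.22, adjusted p = 0.046), also separated the days with both replicates on 1 side. The number of day calls was 0 without GemOE control replicate 1, without GemOE day 4 control and without GemOE day 4 dox, and 3 and 13 without GemOE control and dox replicate 2. It was 35, 37 and 15 without GemKD control replicate 1, dox replicate 1 and dox replicate 3, and 148 without GemKD control replicate 2.

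The dox effects are balanced over replicates 1 and 2, but the error of their fit holds the difference between these replicates, so calls of the 258 genes are not read from it in either line. In GemKD dox gave 1 call over all genes tested (0.00627%), Hprt (limma, adjusted p under 0.05), and 599 genes passed an unadjusted p under 0.05 (3.76%). With the replicate block the call was again 1 and 1941 genes passed at an unadjusted p (12.2%), 47 of the 83 and 70 of the 175 among them. The estimates, which the block does not change, had mostly 1 sign: 75 of the 83 genes were higher with dox, with a median of 0.25, and 157 of the 175 were lower, with a median of -0.25, beside 52.7% of all genes higher. The mean level of the 175 genes fell with dox in replicate 1 (8.54 to 8.13) and replicate 2 (9.54 to 9.15). In replicate 3, which the rule did not use, it did not fall (8.58 to 8.61). The mean of the 83 genes rose in replicates 1 (9.45 to 9.72), 2 (8.42 to 8.76) and 3 (9.07 to 9.32). For Kcnj3 the estimate was 0.41 ± 0.51 (SE), for Fgf5 0.54 ± 0.59, for Hsf2bp -0.52 ± 0.61 and for Txnip -0.67 ± 0.69 (limma adjusted p = 0.965 for each). All these estimates come from the same 6 arrays, so a count over genes is not a count of independent values.

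In GemOE the dox estimates of the 258 genes ran from -0.41 to 0.39. Of the 83 genes 30 were higher with dox, with a median of -0.03, and of the 175 genes 125 were higher, with a median of 0.07, beside 56.7% of all genes. The only call was again Hprt (0.00627%), and it was lost without 5 of the 6 GemOE arrays (all but control replicate 2). With an unadjusted p under 0.05, 149 genes passed (0.934%). With the replicate block 572 genes passed (3.59%), 4 of the 83 and 6 of the 175 among them.

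At the threshold, the genes just inside were Acsl4, Scd2 and Gatm, enzymes of fatty acid activation, fatty acid desaturation and creatine synthesis, with a smallest difference of 0.50 each and higher in replicate 1. On the other side were Slc23a1, a vitamin C transporter, H1f10, a linker histone, and Zfp57, which protects imprinted methylation. Just outside lay Dbn1, Bex4 and Pphln1, and B4galt5, Hspb1 and Herpud1, with smallest differences of 0.49 to 0.50 in size. Of the 258 genes, 39 were on one of the 26 main lists, which were drawn up with earlier results of these data known. Another 19 of the 258 belong to classes that were counted but not named, such as predicted genes and small RNAs. In the order of genes along the chromosomes 12 of the 258 genes form 6 pairs of direct neighbours with the same direction, among them Nefl with Nefm and Triml1 with Triml2. Zfp600 with Zfp980 and Phf11c with Phf11d are close copies, whose probes may not tell them apart. These pairs were named after their values were seen.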

How the data were processed

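Total RNA, 1 µg a sample, from 12 samples was labelled with biotin and hybridised to whole-transcript Affymetrix arrays, per the labels' protocols. The authors' deposited table holds linear intensities by probe set and array. How they were summarised and normalized is not given in the sources used here. They were transformed as log2(intensity + 1) and quantile normalized over 35512 probe sets. Of these, 21789 named 1 gene, 1621 several and 12102 none. The brightest probe set stood for a gene, 19938 genes in all, and genes below the 20th percentile of mean level (signal 86.8) were left out. Differences of dim genes are understated on this scale, and precision is limited by how few arrays there are.

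Models were fitted in R 4.3.3 with lmFit and eBayes of limma 3.58.1 (Benjamini-Hochberg over 15950 genes, calls at 0.05): replicate, line and dox on 8 arrays (4 residual degrees of freedom), the same with a replicate by line term (3), and all 12 arrays with a baseline per line and day and a dox effect per line (7) or a mean per line and replicate number (4). The last gave replicate 3 in GemKD. The limma contrasts were tested on simulated arrays whose noise was independent and held no spread between replicates. The other steps were not tested in this way. Genes named are Gmnn and Hprt, the 12 members of each direction with the largest smallest difference, the 4 genes of each list with the largest difference, up to 5 called genes in each direction of the other contrasts, genes at the threshold, and genes that ran opposite ways in the lines. Other names are said to be chosen after their values were seen. Members and lists were chosen with earlier results of these data known. The 26 lists held 569 entries, of which 27 without a probe set of their own and 19 below the filter are not analysed here.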

Additional observations from a re-analysis of the deposited data

Results flagged for a closer look

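For 89 genes the replicate difference differed between the lines by the interaction test in limma. On the side of a higher value in GemKD the largest estimates were those of Slc7a11, the cystine transporter (2.49), Dlk1, an imprinted Notch family ligand (2.38), Hoxa5 (2.37) and Hoxd8 (2.18), both posterior patterning genes, and Slc6a9, a glycine transporter (2.12). Slc7a11 stood at 5.98 and 5.76 in GemOE replicate 1 and at 8.15 and 8.34 in replicate 2, but between 6.63 and 6.89 on the 4 GemKD arrays of replicates 1 and 2. Hoxa5 showed the same form, at 6.18 and 6.16 against 8.03 and 8.38 in GemOE, and between 6.17 and 6.58 in GemKD, where it was near the lower limit for testing. On the other side were Aqp8, a water channel (-2.02), Gata6 (-1.95), Htra1, a secreted protease (-1.91), Pth1r, the parathyroid hormone receptor of parietal endoderm (-1.65), and Cubn (-1.60). Of these, Cubn and Slc6a9 had the same direction in both lines with unequal size, while Gata6 and Aqp8 had opposite directions. Line and day cannot be told apart in this comparison.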

How the results depend on the processing

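No gene among the 24 named members changed direction under the alternatives, which moved 15 of their 310 values. The 24 were chosen for the largest smallest pair differences. A change of direction was therefore unlikely from the start, and its absence shows little. The number of members was 853 at a threshold of 0.3, 112 at 0.7, 567 from the control pairs alone, 442 from the dox pairs alone, 412 without the GemKD dox pair and 339 to 585 with 1 array left out. With a sign rule and the limma call in place of the size rule, chosen after seeing the data, it was 3199, which holds 257 of the 258. Replicate 1 minus 2 gave 1128 calls in GemKD alone and 1113 to 2805 with 1 array left out. Median centring, which moved the GemOE median of all genes to -0.12, gave 544 calls for the line interaction, 33 for day and 205 for GemKD replicate 3, and no filter gave 3, 27 and 0. The filter at the 40th percentile gave 7 calls for GemKD replicate 3, pseudocount 16 gave 8 and GemKD arrays alone 0. Day gave 19 calls with GemOE arrays alone. With 1 array left out, the ranges were 0 to 148 for day, 0 to 379 for GemKD replicate 3, 0 to 99 for the interaction, 0 to 1 for dox in GemOE and 1 for dox in GemKD. The causes were not tested. Arrays of equal number deviated together in GemKD replicates 1 and 2 (r = 0.60 and 0.44) but not 3 (0.05), and in GemOE on day 5 (0.79), so the numbers are not established as pairs. A replicate block raised the day calls to 1710 and left the dox calls at 1 in each line. None of the 24 named members had another tested probe set, so that alternative gave no value.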

Other observations

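Krt8, Vim and Tagln, cytoskeletal genes singled out after their values were seen, had a larger difference between replicates 1 and 2 in GemKD than in GemOE. Krt8, a simple epithelial keratin, stood at 11.78 and 11.77 in GemKD replicate 1 and at 9.74 and 9.98 in replicate 2, but at 12.77 and 12.78 against 12.18 and 12.37 in GemOE. The interaction of replicate with line was 1.41 ± 0.14 (SE, limma adjusted p = 0.014). Vim, the mesenchymal filament vimentin, had an interaction of 1.03 ± 0.14 (limma adjusted p = 0.029), and Tagln, an actin-binding protein of smooth muscle, of 1.06 ± 0.16 (limma adjusted p = 0.047). Tagln is also on the fibroblast list, whose medians were 0.22 in GemKD and 0.04 in GemOE, and the part of fibroblast RNA was not tested.

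The imprinted genes Igf2, Dlk1 and Grb10 were the calls of their list in the same interaction test. Igf2, the insulin-like growth factor 2, stood at 11.07 and 10.95 in GemOE replicate 1 and at 12.31 and 12.37 in replicate 2, while the 4 GemKD arrays of replicates 1 and 2 ran from 8.45 to 8.90. Its interaction was 1.59 ± 0.16 (SE, limma adjusted p = 0.014). Of 18 imprinted genes tested, 3 were called with a higher replicate difference in GemKD and 0 with a lower one, beside 0.426% and 0.132% of all genes tested. In all 4 pairs 5 were higher and 4 lower in replicate 1, beside 21.2% and 21.6% of all genes tested. Nothing about imprinted genes is read from the 5 and 4. The interaction calls as a whole fell to 0 without any of 3 single arrays, as given above.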
